A study of Mus musculus with 15 samples.

Results

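Immunoglobulin light chain variable segments (Igkv for kappa, Iglv for lambda) were examined in whole lung RNA of mice on a control diet (CS group) and mice on a diet with 2% phytosterols (PS group). The members were the genes annotated as immunoglobulin variable genes whose names begin with Igkv or Iglv and whose raw counts, summed over the 6 lung libraries, reached 30. Of the 103 such genes among the 54532 genes of the lung table, 79 met the rule. They comprised 76 kappa and 3 lambda segments from 19 of the 23 families present. Because summed counts chose the members, their abundance is a description and carries no test.

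Both groups were male wild type C57BL/6J mice, labelled 28 weeks old, although the times in the study's methods add up to more. No mouse carried a transgene or deletion, and the synthetic feed differed by the added phytosterols, a mixture led by β-sitosterol, campesterol and stigmasterol. Lungs came from 3 mice per group, and livers from 4 CS and 5 PS mice, including the 6 mice that gave the lungs. The lung libraries held 17934930 to 19396057 counts assigned to genes.

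An antibody light chain is encoded by a variable segment joined by DNA rearrangement to a joining (J) segment and spliced to a constant exon. Each B cell normally uses a single rearranged light chain gene, so the spread of transcripts over variable segments reflects which B cells and plasma cells are present and how much antibody RNA each makes. Plasma cells make far more of this RNA per cell than resting B cells, and in whole tissue a change in the number of cells cannot be told apart from a change in RNA per cell. In mice kappa chains are far more common than lambda chains.

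The kappa members lay on chromosome 6 between 67609713 and 70704177 (GRCm38), from 0.0184 to 3.11 Mb upstream of Igkj1, the first kappa joining segment. Of them, 27 were on the strand of the J segments and 49 on the opposite strand. The lambda members lay on chromosome 16 between 19085017 and 19260859. Every one of the 79 had the same start and end in GENCODE M21 and 2 exons, a leader exon and the V exon, and none overlapped an exon of another gene. The gene lengths ran from 338 to 404 bases.

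The end of the V exon is shown for the lambda pair and the leading kappa segments, because it holds the germline start of CDR3, the most variable loop of the chain. Each line gives the last 90 bases of the V exon as GENCODE M21 transcripts have it, 5′ to 3′ along the gene, with capitals from the last in-frame cysteine codon to the end of the segment. Iglv1 lies at chr16:19085017-19085106 on the minus strand and Iglv2 at chr16:19260401-19260490 on the minus strand. Igkv3-4 lies at chr6:70672288-70672377 on the plus strand, Igkv3-2 at chr6:70698978-70699067 on the plus strand and Igkv10-96 at chr6:68631963-68632052 on the minus strand.
Iglv1: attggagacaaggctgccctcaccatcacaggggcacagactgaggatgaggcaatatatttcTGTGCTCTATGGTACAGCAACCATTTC
Iglv2: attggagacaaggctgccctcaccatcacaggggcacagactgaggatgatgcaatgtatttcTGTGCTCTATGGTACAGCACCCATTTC
Igkv3-4: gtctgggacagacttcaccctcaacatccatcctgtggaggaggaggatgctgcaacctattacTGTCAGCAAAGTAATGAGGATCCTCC
Igkv3-2: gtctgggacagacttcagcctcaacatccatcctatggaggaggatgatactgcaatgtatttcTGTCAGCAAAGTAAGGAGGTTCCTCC
Igkv10-96: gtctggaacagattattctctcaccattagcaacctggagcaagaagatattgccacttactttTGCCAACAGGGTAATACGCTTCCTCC
Iglv1 and Iglv2 differed at 3 of these 90 bases and at 9 of the 305 bases of the V exon, an identity of 97.0%. Igkv3-4 and Igkv3-2 differed at 9 of the 90 bases, 2 of them among the capitals.

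The 6 segments with lower levels in PS lungs at an adjusted p under 0.05, described further on, are shown in the same way. Igkv12-41 lies at chr6:69858420-69858509 on the minus strand, Igkv12-46 at chr6:69764523-69764612 on the minus strand and Igkv8-24 at chr6:70216858-70216947 on the minus strand. Igkv8-28 lies at chr6:70143593-70143682 on the minus strand, Igkv17-127 at chr6:67861570-67861659 on the plus strand and Igkv3-12 at chr6:70518760-70518849 on the plus strand.
Igkv12-41: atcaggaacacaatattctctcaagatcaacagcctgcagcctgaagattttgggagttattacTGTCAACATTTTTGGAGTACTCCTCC
Igkv12-46: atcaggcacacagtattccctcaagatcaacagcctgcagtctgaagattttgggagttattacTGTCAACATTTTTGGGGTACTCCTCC
Igkv8-24: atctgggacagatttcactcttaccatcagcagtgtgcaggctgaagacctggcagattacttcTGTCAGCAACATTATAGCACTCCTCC
Igkv8-28: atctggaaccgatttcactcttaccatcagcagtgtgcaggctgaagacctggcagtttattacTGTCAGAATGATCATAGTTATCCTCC
Igkv17-127: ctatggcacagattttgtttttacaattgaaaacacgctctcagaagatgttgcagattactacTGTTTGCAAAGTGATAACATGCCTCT
Igkv3-12: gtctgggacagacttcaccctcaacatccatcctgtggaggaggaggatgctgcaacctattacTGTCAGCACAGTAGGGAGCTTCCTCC
Igkv12-41 and Igkv12-46 differed at 5 of the 90 bases, 1 of them among the capitals. Igkv8-24 and Igkv8-28 differed at 12, 7 of them among the capitals. Igkv3-12 matched the leading Igkv3-4 at every base before the cysteine and differed from it at 5 of the 26 bases from the cysteine codon on.

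Many members resembled each other closely. Over the V exon 40 of the 79 were at least 95% identical to another light segment, with a median identity to the nearest of 95.2% and a highest value of 99.0%. None was identical to another. A read from such a pair can fit either segment, so counts of close relatives are uncertain.

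The members held 78368 counts, with 671 for the median member and 9125 for Iglv1. The 24 light segments under the threshold held 200 counts together, and 5 of them had none. Just inside the threshold were Igkv4-90 with 40 counts, Igkv8-34 with 44 and Igkv9-123 with 65, and just outside were Igkv11-125 with 29, Igkv1-132 with 23 and Igkv1-122 with 19. Summed over each group alone, 77 members reached 30 counts in CS and 73 in PS, with 72 in both.

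Light segments took a smaller mean share of lung RNA counts in the PS group, but the groups overlapped. The summed share of all gene counts was 0.0798%, 0.0615% and 0.117% in CS lungs 1, 2 and 3. It was 0.0655%, 0.0532% and 0.0487% in PS lungs 1, 2 and 3. The means were 0.0860% ± 0.0280 and 0.0558% ± 0.00872 (SD, n = 3 each), a difference of -0.0302 percentage points. CS lung 3 was the highest lung, and without it the difference was -0.0149 percentage points.

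The kappa and lambda parts of that sum were also compared apart. Kappa segments held 13497, 10418 and 18366 counts in the CS lungs and 9851, 7720 and 7399 in the PS lungs. Every PS lung was below every CS lung in these raw counts, but on the FPKM scale the summed kappa level overlapped, at 1452 to 2685 in the CS lungs and 1095 to 1599 in the PS lungs. Lambda segments held 1982, 1176 and 2542 counts in the CS lungs and 2097, 1890 and 1430 in the PS lungs, which overlapped. As a share of light segment counts, lambda was 12.8%, 10.1% and 12.2% in the CS lungs and 17.6%, 19.7% and 16.2% in the PS lungs. All 3 PS lungs lay above all 3 CS lungs, with means of 11.7% ± 1.39 and 17.8% ± 1.75 (SD, n = 3 each). These sums were not tested, because their members were chosen with earlier results of these data known.

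Counts were less evenly spread over the segments in the PS lungs. Evenness, the Shannon entropy of the members' shares divided by its maximum, was 0.888, 0.891 and 0.884 in the CS lungs and 0.841, 0.800 and 0.809 in the PS lungs. Stated as the number of equally used segments with the same entropy, this was 48.5, 49.1 and 47.6 in the CS lungs and 39.5, 33.0 and 34.2 in the PS lungs. The groups did not overlap, with means of 48.4 ± 0.770 and 35.6 ± 3.44 segments (SD, n = 3 each). The inverse Simpson index, which weights abundant segments more, was 34.2 ± 1.76 in the CS lungs and 19.7 ± 2.52 in the PS lungs.

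**Figure D1:**
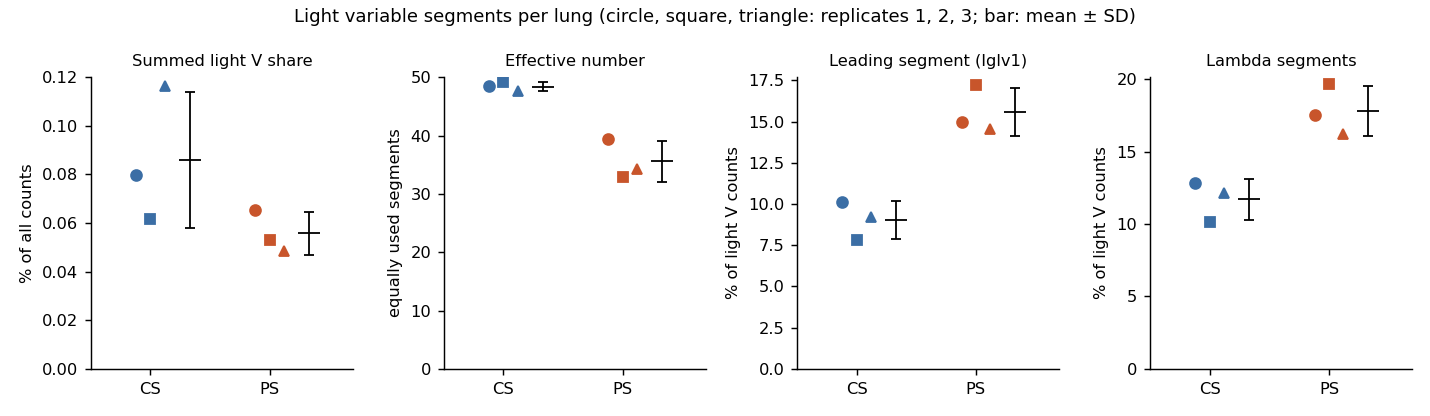
Each point is a lung, grouped by diet, and the bar gives the mean ± SD of 3 lungs. From left to right the y axes give the summed share of all counts (%), the effective number of segments, and the shares (%) of light variable counts held by Iglv1 and by the 3 lambda segments. The groups overlapped in the first panel and were apart in the other panels, where PS lungs had fewer effective segments (33.0 to 39.5 against 47.6 to 49.1) and larger Iglv1 and lambda shares.

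The number of members detected overlapped between the groups, although the count rule itself kept segments that were well counted and left out the sparsest. With each lung thinned to 8829 counts, the depth of the shallowest, the expected number of members with a count was 76.9, 77.9 and 77.0 in the CS lungs and 77.5, 76.9 and 76.0 in the PS lungs. Of the 79 members, 73 had counts in all 6 lungs. The 5 leading segments held 27.6%, 26.5% and 28.7% of light segment counts in the CS lungs and 35.2%, 45.1% and 41.8% in the PS lungs. Every PS lung was again above every CS lung.

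Iglv1, the variable segment of the commonest mouse lambda chain, was the leading segment in each of the 6 lungs. It held 10.1%, 7.81% and 9.23% of light segment counts in the CS lungs and 15.0%, 17.2% and 14.6% in the PS lungs. Its own level did not pass the test. The counts were 1562, 906 and 1929 in the CS lungs and 1787, 1655 and 1286 in the PS lungs, a log2 fold change of 0.23 ± 0.28 (SE, edgeR adjusted p = 0.615). The groups overlapped in level and were apart in share.

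Iglv2 and Iglv3 did not pass edgeR's test either. Iglv2 had 160, 142 and 231 counts in the CS lungs and 94, 68 and 33 in the PS lungs, with no overlap and a log2 fold change of -1.32 ± 0.40 (SE, edgeR adjusted p = 0.0666, or 0.0192 without the filter on low counts, DESeq2 adjusted p = 0.0102). Iglv3 had 260, 128 and 382 against 216, 167 and 111 counts, which overlapped, with a log2 fold change of -0.52 (edgeR adjusted p = 0.420). Iglv3 shares little sequence with the others, at most 57.1% identity to any light segment.

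The spread was also narrower with the lambda segments left out. Evenness over the kappa segments alone was 0.904, 0.898 and 0.895 in the CS lungs and 0.874, 0.837 and 0.835 in the PS lungs. The leading kappa segment was Igkv1-135, Igkv3-2 and Igkv10-96 in CS lungs 1, 2 and 3, with 7.69%, 6.69% and 7.96% of kappa segment counts. In PS lungs 1, 2 and 3 it was Igkv3-4, Igkv3-2 and Igkv3-4, with 10.01%, 11.3% and 12.9%. Each PS lung gave more to its leading kappa segment than any CS lung did, and the lungs of a group did not share one leader.

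Per length, on the FPKM scale, Iglv1 was also the first segment in both groups, at 197 ± 73.9 in CS lungs and 231 ± 47.8 in PS lungs (SD, n = 3 each). Igkv10-96 followed in the CS group at 117 ± 90.2 and Igkv3-4 in the PS group at 115 ± 68.7. Igkv1-135 ranked 3 in the CS group at 91.9 ± 45.0 and 9 in the PS group at 46.4 ± 29.8. In the CS group the ranks from 2 to 6 differed by less than the spread between lungs.

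The most abundant kappa segments were uneven from mouse to mouse. Igkv3-4 had 377, 665 and 643 counts in the CS lungs and 986, 234 and 955 in the PS lungs. Igkv3-2 had 667, 697 and 512 counts in the CS lungs and 180, 870 and 114 in the PS lungs, so PS lung 2 held the most of all lungs and PS lungs 1 and 3 the least. Igkv10-96 had 535, 379 and 1462 counts in the CS lungs and 313, 311 and 586 in the PS lungs. None of these passed the test, with edgeR adjusted p values of 0.551, 0.639 and 0.299.

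The remaining segments among the 12 most abundant showed the same unevenness. Igkv4-68 had 203, 345 and 234 counts in the CS lungs and 141, 752 and 99 in the PS lungs, and Igkv6-23 had 238, 216 and 365 against 167, 580 and 206. In both, PS lung 2 stood above all other lungs. Igkv8-30 was highest in PS lung 1, with 462 counts there against 188 to 383 in the CS lungs and 187 and 255 in the other PS lungs. Igkv1-117 had 351, 221 and 1055 counts in the CS lungs against 447, 479 and 374.

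Igkv1-110 was the one segment of the 12 with lower counts in every PS lung than in any CS lung, with 329, 283 and 853 against 210, 197 and 231. Igkv1-135 had 1038, 340 and 707 counts in the CS lungs and 527, 166 and 254 in the PS lungs, and Igkv14-111 had 476, 275 and 490 against 280, 160 and 169. For Igkv17-121 the counts were 436, 190 and 316 against 371, 55 and 85. The groups overlapped in these 3. None of the 12 passed edgeR's test, while DESeq2's adjusted p was 0.0262 for Igkv1-110 and 0.0336 for Igkv14-111. Among them Igkv14-111 came nearest the threshold, with a log2 fold change of -0.90 ± 0.31 (SE, edgeR adjusted p = 0.0936, and just under 0.05 without the filter on low counts).

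**Figure D2:**
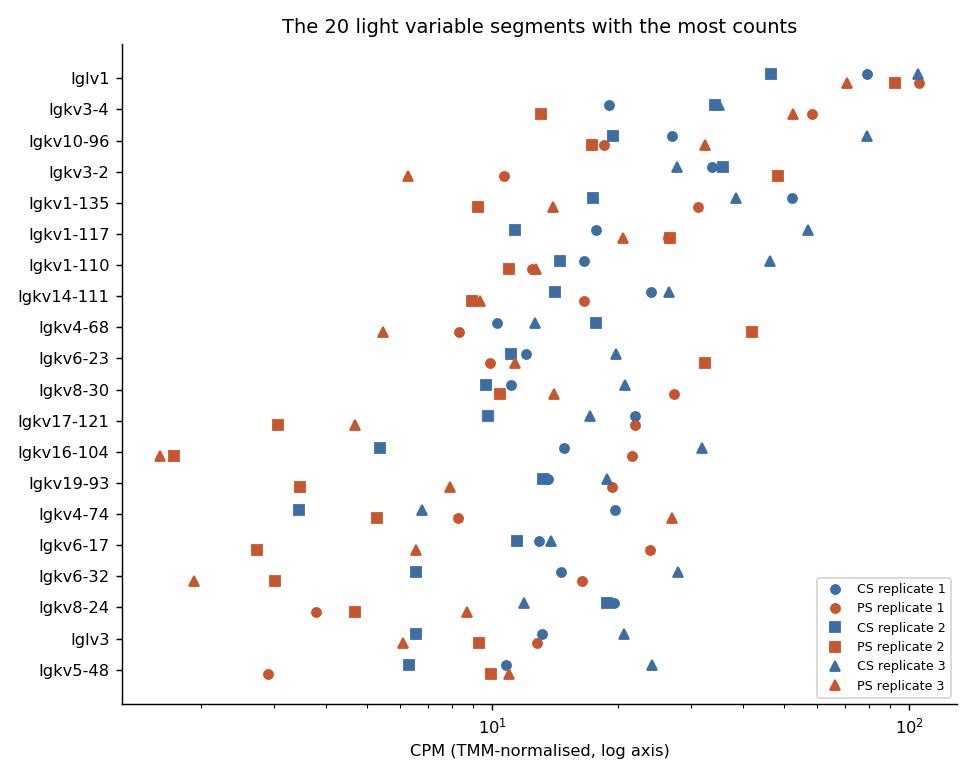
The 20 light variable segments with the most counts, one per row, with the level in each lung as TMM-normalised CPM (counts divided by the effective library size in units of 1e6) on a log x axis. Blue marks are CS lungs and orange marks PS lungs, with circle, square and triangle for replicates 1, 2 and 3. Iglv1 stands at the right in every lung, and for Igkv3-2, Igkv4-68 and Igkv6-23 a single PS lung lies above the CS lungs. The other PS lungs lie below the CS lungs, except that PS replicate 3 lies among them for Igkv6-23.

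Across the whole table, 71 of the 79 members had enough counts to be tested, and the diet difference pointed down for most. In edgeR's quasi-likelihood test 6 members had an adjusted p under 0.05 with lower levels in PS lungs and 0 with higher levels. Among all 16717 genes tested 4.43% were lower and 4.8% were higher, 9.22% in all. At an unadjusted p under 0.05, 19 members were lower and 2 higher, against 14.5% and 15.6% of all genes. The fitted log2 fold change was below 0 for 60 members, against 49.6% of all genes, with a median of -0.79 for the members and 0.01 for all genes. These counts describe the members tested and are no support for a direction, since the members were chosen with earlier results of these data known. The count rule also let in 5 members that reached 30 counts in CS lungs only and 1 in PS lungs only. Of these, Igkv12-89 alone was tested.

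The calls over all genes depended on single lungs, and those of the members with them. Leaving out CS lung 1, CS lung 3 or PS lung 2 left 0 members lower, and 22, 0 and 7 genes lower in the whole table. The edgeR calls of other genes given further on also end without CS lung 3, since 0 genes were called then, and DESeq2 was not rerun without single lungs. Without CS lung 2 there were 2 members lower, 1 of them among the 6, and 25 genes lower in all. Without PS lung 1 there were 17, with 5 of the 6, among 1197 genes lower, and without PS lung 3 there were 6, with 4 of the 6, among 1309. With the trend with gene length removed from each library 7 members were lower, of which 3 were among the 6, among 813 genes. The median stayed below 0 in every such fit, and was -1.26 without PS lung 1. DESeq2's Wald test called 19 members lower and 1 higher, against 7.95% and 8.31% of all genes, and its calls held all 6 of edgeR's.

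The clearest falls were in 2 segments of the Igkv12 family, whose sequences are given above. Igkv12-41 had 110, 160 and 194 counts in the CS lungs and 36, 28 and 19 in the PS lungs. Its log2 fold change was -2.36 ± 0.36 (SE, edgeR adjusted p = 0.0193). Igkv12-46 had 332, 164 and 316 counts in the CS lungs and 70, 50 and 49 in the PS lungs, a log2 fold change of -2.14 ± 0.33 (SE, edgeR adjusted p = 0.0193). The groups were well apart in both. The pair is 94.97% identical over the V exon, with 15 differences in 298 bases. Igkv12-41 is slightly closer to Igkv12-44, at 95.6%, which had a log2 fold change of -0.64 (edgeR adjusted p = 0.342).

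Igkv8-24 and Igkv8-28 also fell. Igkv8-24 had 387, 367 and 220 counts in the CS lungs against 64, 84 and 158 in the PS lungs, a log2 fold change of -1.55 ± 0.34 (SE, edgeR adjusted p = 0.0344). Igkv8-28 had 72, 90 and 87 against 23, 22 and 40, a log2 fold change of -1.43 ± 0.33 (SE, edgeR adjusted p = 0.0383). They share 88.6% of the V exon. Igkv8-28 is closer to Igkv8-19, at 97.8% identity, which did not pass edgeR's test (log2 fold change -1.60, edgeR adjusted p = 0.117, DESeq2 0.0225). Igkv8-30 of the same family had a log2 fold change of 0.32 (edgeR adjusted p = 0.620).

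The other calls were Igkv17-127 and Igkv3-12, with smaller falls. Igkv17-127 had 285, 199 and 247 counts in the CS lungs and 136, 100 and 112 in the PS lungs, a log2 fold change of -0.94 ± 0.23 (SE, edgeR adjusted p = 0.0432). Igkv3-12 had 180, 140 and 103 against 52, 70 and 61, a log2 fold change of -1.08 ± 0.27 (SE, edgeR adjusted p = 0.0439). Igkv17-127 is 97.99% identical to Igkv17-121, which did not pass the test, and Igkv3-12 is 96.8% identical to Igkv3-7.

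The lowest fitted log2 fold changes belonged to segments that did not pass edgeR's test and were highest in CS lung 3. Igkv12-89 had 21, 4 and 305 counts in the CS lungs and 21, 4 and 1 in the PS lungs, so 85.7% of its counts came from CS lung 3 (log2 fold change -3.55, edgeR adjusted p = 0.235). Igkv4-58 had 139, 26 and 360 against 22, 20 and 17 (log2 fold change -3.05, edgeR adjusted p = 0.0548, DESeq2 0.0164). Igkv4-86 had 175, 26 and 477 against 31, 16 and 31 (log2 fold change -3.02, edgeR adjusted p = 0.0822, DESeq2 0.0325). Of these 3, Igkv4-58 alone had every PS lung below every CS lung.

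The highest fitted log2 fold changes were all in the Igkv4 family, the largest family with 19 members. Igkv4-80 had 25, 51 and 34 counts in the CS lungs and 71, 23 and 227 in the PS lungs (log2 fold change 1.65, edgeR adjusted p = 0.155, DESeq2 0.0473). Igkv4-61 had 52, 18 and 92 against 39, 224 and 44 (log2 fold change 1.01, edgeR adjusted p = 0.406). Neither passed edgeR's test, and in each a PS lung held by far the most counts while another PS lung lay among or below the CS lungs. Igkv4-53 had 67, 48 and 70 against 158, 98 and 76, which did not overlap (log2 fold change 0.98, edgeR adjusted p = 0.102).

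By non-overlap of the normalised counts, 15 members had every PS lung below every CS lung and 1, Igkv4-53, had every PS lung above, while 63 overlapped. Of all genes tested 18.8% were below and 17.3% above in this way, so the count below lay near the background.

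**Figure D3:**
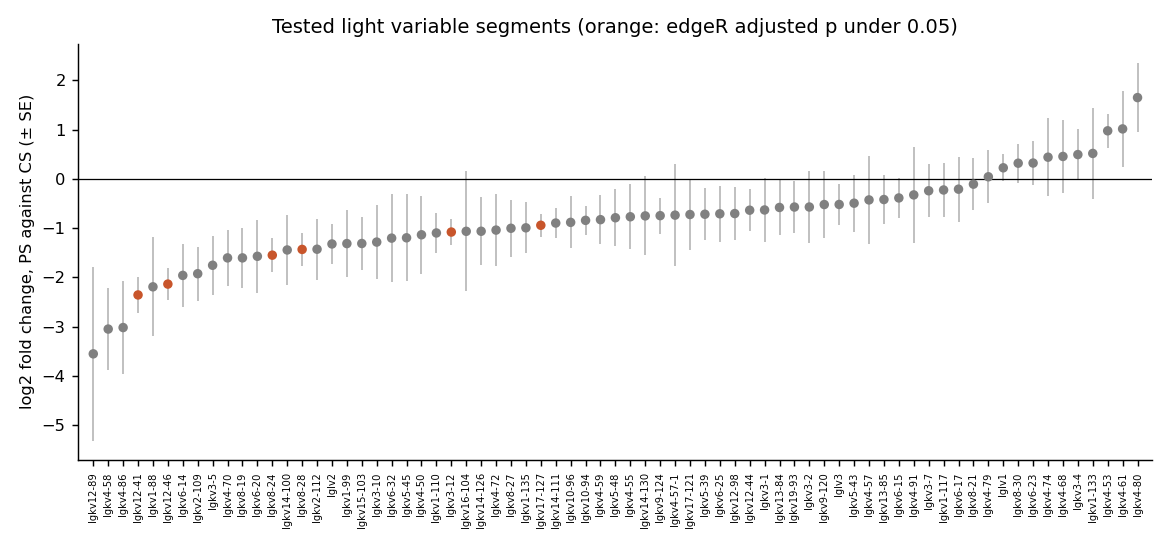
Fitted log2 fold change (PS against CS, ± SE) of the 71 tested members, ordered from lowest to highest, with orange points for the 6 at an adjusted p under 0.05. Of the points, 60 lie below 0 and 11 above, and the widest error bar belongs to Igkv12-89 at the far left.

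Summed by family, 18 of the 19 families had a lower mean CPM in the PS group. Every PS lung was below every CS lung in 6 families, against 18.8% of all single genes tested. The families are sums of the members described above, several of a single member, so they add no separate evidence. Igkv12 went from 45.6 ± 13.5 CPM in CS lungs to 15.7 ± 6.55 in the PS group (SD, n = 3 each). Igkv8 went from 52.5 ± 11.3 to 33.1 ± 9.44, Igkv5 from 33.6 ± 11.3 to 19.98 ± 4.52 and Igkv9 from 19.6 ± 2.33 to 12.6 ± 4.49. Igkv2 and Iglv2 completed these 6. The families with the most counts overlapped, with Igkv4 at 125 ± 47.0 CPM in CS lungs and 99.7 ± 11.01 in PS lungs and Igkv3 at 95.8 ± 13.4 and 79.3 ± 6.63. Only the family with Iglv1 alone had a higher mean in the PS group.

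Along the kappa locus the fitted differences were below 0 near to and far from the J segments. Within 1 Mb of Igkj1, 24 of 27 tested segments were below 0, with a median log2 fold change of -0.79. Between 1 and 2 Mb 15 of 21 were below 0, with a median of -0.58, and beyond 2 Mb 19 of 20, with a median of -0.92. Of the 6 calls, 5 lay within 1 Mb, at 0.204 Mb (Igkv3-12) to 0.958 Mb (Igkv12-46), and Igkv17-127 lay at 2.86 Mb. The summed level within 1 Mb was 297 ± 38.8 CPM in CS lungs and 201 ± 35.3 in PS lungs without overlap, while the sums farther away overlapped. The median was -0.90 for segments on the strand of the J segments and -0.79 for those on the opposite strand.

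**Figure D4:**
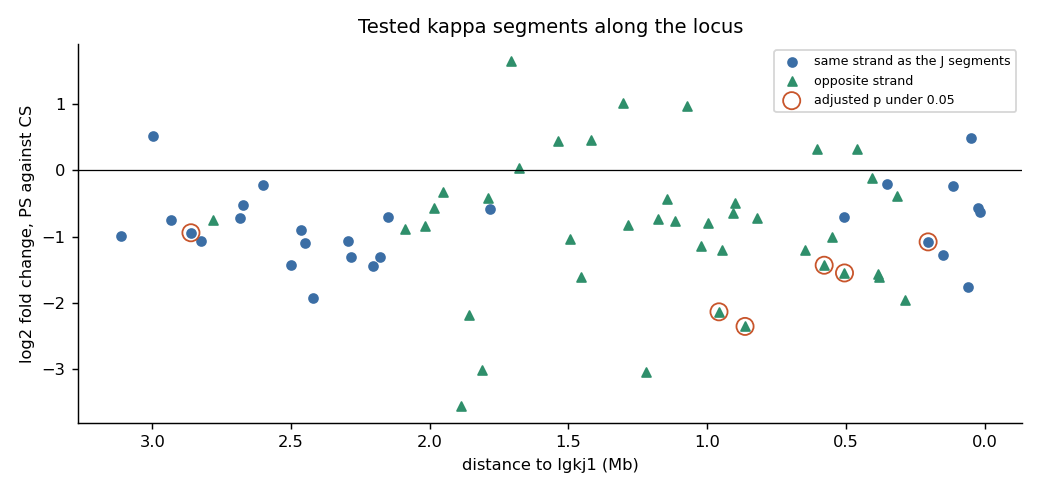
Log2 fold change (PS against CS) of the 68 tested kappa segments against their distance to Igkj1 in Mb, with circles for the strand of the J segments, triangles for the opposite strand and orange rings for an adjusted p under 0.05. Points below 0 prevail along the whole locus, and the points above 1 lie between 1 and 2 Mb.

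Some segments belonged largely to a single mouse. For 13 members 1 lung held more than 50% of the counts. Igkv8-34, just above the threshold, had 0, 0 and 41 counts in the CS lungs and 1, 2 and 0 in the PS lungs. Igkv4-69, named after its values were seen, had 0, 10 and 0 counts in the CS lungs and 19, 3 and 215 in the PS lungs. CS lung 3 was the highest lung for 37 of the 79 members, whereas PS lungs 1, 2 and 3 were the highest for 7, 4 and 3 members.

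Segment use was also compared between pairs of lungs. The share of light segment counts common to a pair of lungs was 70.0% to 74.6% within the CS group, 63.7% to 71.3% within the PS group and 63.1% to 71.4% between groups. Spearman's rho over the 79 members, which share libraries and are not replicates, was 0.588 to 0.729 within the CS group, 0.636 to 0.701 within the PS group and 0.566 to 0.713 between groups. Only Iglv1, Igkv3-4 and Igkv10-96 were among the 10 leading segments of every lung.

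Of the 5 light constant genes, to which these segments are joined, all but the barely detected Iglc4 had higher means in the PS group. Igkc, the kappa constant gene, had 50830, 25676 and 48315 counts in the CS lungs and 94558, 141825 and 60967 in the PS lungs. All PS lungs were above all CS lungs, with a log2 fold change of 1.37 ± 0.37 (SE) whose call turned on the fit: edgeR's adjusted p was 0.0502, or 0.0278 without the filter on low counts, and DESeq2's was 0.00052. Iglc1, the constant gene that pairs with Iglv1, rose from 1796, 968 and 1725 counts to 4952, 5387 and 2619, a log2 fold change of 1.66 ± 0.33 (SE, edgeR adjusted p = 0.0286). Iglc2 and Iglc3 overlapped between groups, with log2 fold changes of 0.69 and 0.61 (edgeR adjusted p = 0.261 and 0.432), and Iglc4 had 8 counts over the CS lungs and 4 over the PS lungs.

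Variable counts per constant count were lower in the PS lungs. Per 100 Igkc counts the kappa segments held 26.6, 40.6 and 38.0 counts in the CS lungs and 10.4, 5.44 and 12.1 in the PS lungs. The means were 35.0 ± 7.47 and 9.33 ± 3.48 (SD, n = 3 each), 3.76 times apart. Per 100 lambda constant counts the lambda segments held 61.0, 64.7 and 71.5 in the CS lungs and 28.1, 23.99 and 39.3 in the PS lungs. In both chain types the ratio was lower in every PS lung than in any CS lung. Mean variable counts were lower in the PS group while mean constant counts were higher. Segment counts therefore do not stand for the amount of light chain RNA, and why variable and constant counts moved apart was not tested.

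The heavy chain, measured here only as a sum, showed a larger gap. The 113 heavy variable segments (Ighv) held 6848, 5309 and 9431 counts in the CS lungs and 1493, 744 and 2031 in the PS lungs. Per 100 heavy constant counts this was 8.77, 12.3 and 11.4 in the CS lungs and 1.28, 0.555 and 1.87 in the PS lungs. Light variable counts per heavy variable count were 2.26, 2.18 and 2.22 in the CS lungs and 8.003, 12.9 and 4.35 in the PS lungs. The CS lungs lay close together in this ratio, and the PS lungs were higher and spread widely.

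**Figure D5:**
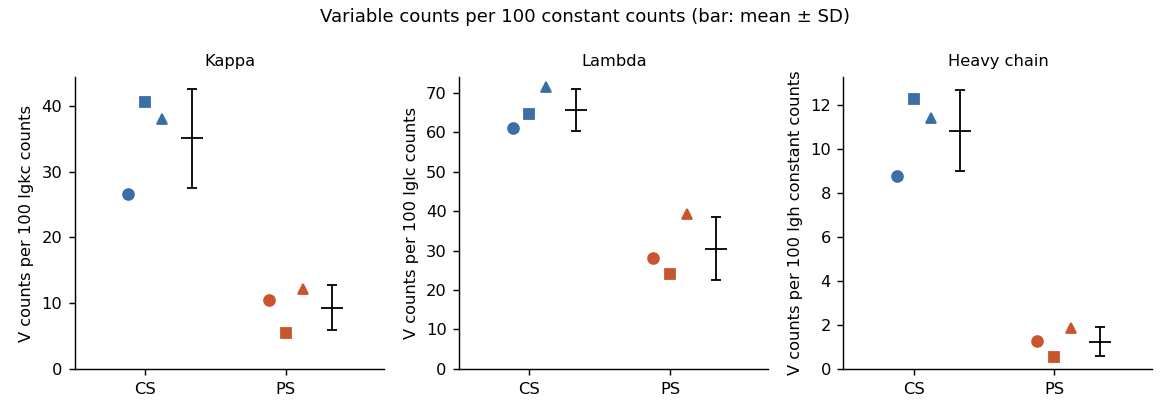
Variable segment counts per 100 constant gene counts in each lung for the kappa, lambda and heavy chains, with the mean ± SD of 3 lungs per diet. In each panel all PS lungs lie below all CS lungs, at 5.44 to 12.1 against 26.6 to 40.6 for kappa.

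Among the 8 heavy constant genes, 7 were tested and 0 passed edgeR's test, with a median log2 fold change of 1.03. DESeq2 called Ighg2c, Igha and Ighg1 higher, at adjusted p of 0.00489, 0.00892 and 0.0129, against 8.31% of all genes. Igha, of the mucosal class, had 50830, 28738 and 45533 counts in the CS lungs and 58594, 68626 and 68612 in the PS lungs (log2 fold change 0.77, edgeR adjusted p = 0.0749, or 0.0360 without the filter on low counts). Its count in CS lung 1 equals that of Igkc there in the table, and the values in the other lungs differ. Ighg1 had 1930, 475 and 2133 against 6405, 10687 and 4183 (log2 fold change 2.34, edgeR adjusted p = 0.0530), and Ighg2c had a log2 fold change of 1.33 (edgeR adjusted p = 0.0841). These, with Ighe at 1 to 8 counts, had every PS lung above every CS lung in normalised counts, against 17.3% of all genes tested. Ighm, Ighd, Ighg2b and Ighg3 overlapped, with log2 fold changes of 0.50, -0.45, 1.03 and 1.64.

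Markers of the antibody-making cells were present in both groups and moved in part. Of 16 plasma cell genes, all tested, 2 rose and 0 fell in edgeR's test, against 4.8% and 4.43% of all genes, with a median log2 fold change of 0.32. DESeq2 called 4 higher and 1, Sdc1, lower (adjusted p = 0.0442), against 8.31% and 7.95% of all genes. Derl3, an endoplasmic reticulum quality control gene, had 99, 73 and 97 counts in the CS lungs and 136, 290 and 272 in the PS lungs (log2 fold change 1.48, edgeR adjusted p = 0.0301). Fkbp11, a folding enzyme of secretory cells, had 72, 57 and 69 against 145, 145 and 115 (log2 fold change 1.16, edgeR adjusted p = 0.0334). Jchain, which links IgA and IgM chains, had a log2 fold change of 0.67 (edgeR adjusted p = 0.121), Xbp1 of -0.08 and Sdc1, also an epithelial gene, of -0.55. The summed level of the list ran from 1380 to 2028 CPM in the CS lungs and from 2132 to 2437 in the PS lungs.

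Of 16 B cell genes, all tested, 2 fell and 0 rose in edgeR's test, against 4.43% and 4.8% of all genes. The median log2 fold change was -0.51, and DESeq2 called 5 lower, against 7.95% of all genes. Cxcr5, the receptor that leads B cells into follicles, had 320, 194 and 151 counts in the CS lungs and 84, 61 and 63 in the PS lungs (log2 fold change -1.53, edgeR adjusted p = 0.0301). Bank1, a B cell signalling adaptor, had 196, 114 and 138 against 46, 64 and 60 (log2 fold change -1.27, edgeR adjusted p = 0.0346). Cd79a and Cd79b, parts of the B cell receptor complex, overlapped, with log2 fold changes of -0.13 and -0.82 (edgeR adjusted p = 0.734 and 0.0950). The summed level ran from 196 to 324 CPM in the CS lungs and from 143 to 216 in the PS lungs. The part of plasma cell and B cell levels in the segment results was not tested.

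The other lists held few calls in edgeR's test, in which 4.43% of all genes were lower and 4.8% higher. Of 8 germinal centre genes tested, S1pr2 fell (log2 fold change -0.89, edgeR adjusted p = 0.0284) and Mef2b rose from 8 counts in each CS lung to 17, 32 and 26 (log2 fold change 1.74, edgeR adjusted p = 0.0406). Of 13 T cell genes tested 0 passed, with summed levels of 130 to 194 CPM in the CS lungs and 131 to 206 in the PS lungs. The joining segments had 3 of 8 tested and 0 called, Iglj1 among them with 29, 19 and 16 counts against 35, 35 and 70 (edgeR adjusted p = 0.0840). The octamer factors, which drive light chain promoters, had 3 tested and 0 called, with Pou2af1 at a log2 fold change of 0.16. Of the genes of light chain rearrangement, Rag1 had at most 4 counts in a lung and Rag2 at most 2, and 2 of 7 listed genes were tested with 0 called. Among 8 tested genes of mucosal antibody transport and lymphoid chemokines edgeR called 0 and DESeq2 called Tnfsf13 lower (adjusted p = 0.0385), with Pigr, which carries IgA across epithelium, at a log2 fold change of -0.71 (edgeR adjusted p = 0.415).

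The libraries carried the markers of lung, with Scgb1a1 of club cells at 626918 to 1184620 counts and Sftpc of type II alveolar cells at 241137 to 484634. Neither the 10 epithelial nor the 6 endothelial genes held a call in edgeR's test, and DESeq2 called Sftpc higher (adjusted p = 0.00378). Of 9 thymocyte genes 4 were tested and 0 called. Hepatocyte transcripts were most abundant in CS lung 1, with 1177 counts of Alb (albumin) against 6 to 186 in the other lungs, and their part in the results was not tested.

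In the liver the same segments were near the limit of detection. The members held 90 to 220 counts per CS liver and 93 to 392 per PS liver, 0.000873% ± 0.000373 (SD, n = 4) and 0.00120% ± 0.000614 (SD, n = 5) of all counts, which overlapped. Of the 79 members 74 had a count in some liver and 2 had enough to be tested, Iglv1 (log2 fold change 1.05, edgeR adjusted p = 0.872) and Igkv1-135 (log2 fold change 0.64, edgeR adjusted p = 0.933). Neither was called, against 0.00758% of the 13195 genes tested in the liver, and neither had an unadjusted p under 0.05, against 7.55%. Kappa segments per 100 Igkc counts were 22.7 ± 18.01 in CS livers (SD, n = 4) and 18.4 ± 10.8 in PS livers (SD, n = 5), which also overlapped. What size of diet difference these counts could show in the liver was not measured, and the difference between the tissues was not tested.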

How the data were processed

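RNA from lungs and livers was sequenced after poly(A) selection. Per the sources, the authors aligned reads to mm10, the UCSC name of GRCm38, with HISAT2 2.0.5 and counted them per gene with featureCounts 1.5.0-p3, and how reads that fit several segments were counted is not given in the sources used here. The deposited tables hold raw counts and, beside them, FPKM values that the authors computed per gene length and per library, and the gene lengths they deposited.

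Counts were tested within each tissue with edgeR 4.0.16 (TMM, its default filter on low counts, robust quasi-likelihood test, R 4.3.3), and p-values were adjusted over all genes by the Benjamini-Hochberg method. Standard errors were derived from the fold change and the test statistic. DESeq2 1.42.0 was an alternative. The fits were also run on simulated data with a fixed spread between libraries that was not estimated from these lungs. That was a check of the code, not of error rates in these data. Shares and evenness were computed from raw counts and CPM from TMM-normalized library sizes, in Python 3.11.15. Sequences were taken from GENCODE M21 transcripts on GRCm38. Each library is 1 mouse, no batch was labelled, and counts are not molecules.

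The members and gene lists were chosen with earlier results of these data known. Segments were named if they were among the 12 with most counts, led a lung, passed the adjusted threshold of 0.05, had one of the 3 highest or lowest fitted fold changes, were lambda, or were the 3 nearest the count threshold of 30 on either side. Constant genes were named, and from other lists the called and up to 3 of the most abundant genes, 1 of which is not reported here. Rag1, Rag2 and Tnfsf13 fall outside this rule and were named after their values were seen.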

Additional observations from a re-analysis of the deposited data

How the results depend on the processing

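The alternatives were DESeq2's size factors and its Wald test, other filters, a replicate block, removal of trends with gene length or GC content (added after seeing the data), other count thresholds and denominators, kappa segments alone (also added) and leaving out each library. Size factors, the Wald test, filters, block and trends were run for the counts of calls and the median. Count thresholds were run for the summed, leading and lambda shares, evenness and effective number, and kappa alone for these except the lambda share. Other denominators were run for the summed share only. Leaving out each lung was run for all of these lung results. Among the alternatives run, none reversed a result. Ratios to constant genes, families, locus bins and marker lists were not rerun, and the lambda sum was lower in PS in counts (1900 in CS, 1806 in PS) and higher in FPKM (257 and 266). DESeq2's Wald test called 2944 genes in the lung, with 19 members lower and 1 higher, and 127 genes in the liver. Without a filter 10 members were lower in the lung (1086 of 28739 genes) and 26 genes were called in the liver. With the trend with gene length removed 1 member was higher and 7 were lower, 3 of them among the 6 reported (1049 genes higher, 813 lower). The same-numbered lungs did not deviate together (r = 0.0498, -0.00648 and 0.0988), so the numbers do not pair them. With the replicate block 8 members were lower (5 of the 6 among them), 0 were higher (806 genes lower, 817 higher) and the median log2 fold change was -0.90, and in the liver 0 genes were called. Leaving out each lung in turn gave 0 to 2949 genes called, 0 to 17 members lower and a median of -1.26 to -0.57. Leaving out each liver gave 0 to 65 genes called and a difference in the liver share of 6.74e-05 to 0.000474 percentage points. As a share of summed FPKM the difference was -0.198 percentage points (0.510% in CS, 0.312% in PS). Over kappa segments alone the differences (PS minus CS) were -0.0507 in evenness, -9.56 in effective number and 3.95 percentage points in the leading share, and the thinned number of segments differed by -0.467. The cause of these shifts was not tested. With 3 lungs per group, calls on single segments rest on few libraries.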
